A study of Arabidopsis thaliana with 6 samples.

Results

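The loci described here are 9 non-coding RNA loci of Arabidopsis thaliana, among them 2 small nucleolar RNA (snoRNA) loci, that differed between wild-type and msh1 memory plants. They are 9 of the 33602 loci in the count files, and they were picked by locus identifier for a group difference in these same libraries, so their own values are a description and carry no test. The annotation calls AT2G20721 and AT3G47348 snoRNA genes, AT1G25098 a long non-coding RNA (lncRNA), and AT1G69252, AT2G46192, AT3G06125, AT4G02005, AT4G13495 and AT5G06165 non-coding RNA genes (ncRNA). The samples were 3 wild-type plants (numbers 22, 23 and 24) and 3 plants of the isogenic msh1 memory line (numbers 31, 32 and 33), all of the Columbia-0 accession, all without further treatment in the labels, and all collected whole when the first bolts appeared. MSH1 is, as background, a nuclear gene for a MutS homologue of plastids and mitochondria, and a memory line descends from plants with MSH1 suppressed and no longer carries the suppressing construct. The memory group is 1 such line. Each plant gave 1 library. The recorded growth settings were the same for both groups. Stratification, a cold period before growth, lasted 2 days with the temperature set to 4 °C. The growth temperature was 22 °C, and light intensity lay between 120 and 150 µmol for each square metre and second.

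As background, snoRNAs guide chemical modification of ribosomal RNA in the nucleolus. Box C/D snoRNAs carry a C box near the 5′ end and a D box near the 3′ end, bind fibrillarin and direct 2′-O-methylation, whereas box H/ACA snoRNAs direct pseudouridylation. Plant snoRNAs are often transcribed as clusters from which each snoRNA is cut out and trimmed. Other non-coding transcripts of plants act as precursors of small RNAs, as antisense partners or as scaffolds, and many have no described role. A library kit of the type used here, TruSeq RNA v2, selects RNA with poly(A) tails and does not mark strand. Mature snoRNAs have no such tail, so reads of precursors, of tailed intermediates and of carried-over mature snoRNA cannot be told apart in these counts.

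The snoRNA loci of the set and the cluster neighbours counted in the same files are shown because their sequences place them in the box C/D class. All sequences are from the RefSeq assembly TAIR10.1, 5′ to 3′ on the transcribed strand, with the C box letters TGATGA and the D box letters CTGA in capitals. AT2G20721 lies at chr2:8931565-8931655 on the minus strand and is shown with AT2G20722 (chr2:8931708-8931782) and AT2G20723 (chr2:8931849-8931922) of the same strand.
AT2G20721: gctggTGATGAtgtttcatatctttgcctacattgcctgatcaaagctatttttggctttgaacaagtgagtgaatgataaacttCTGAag
AT2G20722: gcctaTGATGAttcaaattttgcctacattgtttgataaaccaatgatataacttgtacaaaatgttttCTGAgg
AT2G20723: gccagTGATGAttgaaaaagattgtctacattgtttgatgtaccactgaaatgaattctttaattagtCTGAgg
AT3G47348 lies at chr3:17445963-17446047 on the plus strand, and AT3G47342 (chr3:17445382-17445459) and AT3G47347 (chr3:17445810-17445886) lie upstream of it on the same strand.
AT3G47348: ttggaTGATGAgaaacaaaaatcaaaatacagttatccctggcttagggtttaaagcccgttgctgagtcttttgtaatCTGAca
AT3G47342: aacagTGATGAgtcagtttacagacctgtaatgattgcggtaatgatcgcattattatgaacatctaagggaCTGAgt
AT3G47347: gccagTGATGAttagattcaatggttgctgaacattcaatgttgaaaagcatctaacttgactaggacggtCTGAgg
All 6 sequences hold both boxes, with the C box letters starting at base 6 in each.

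AT3G47348 is the last of 6 annotated snoRNA genes in a row, with AT3G47347 ending 76 bases before it and 3 further genes of the row, AtsnoR88-2, snoR136 and AtsnoR64, not analysed here. AT2G20721 is the last of 3 in a row, with AT2G20722 ending 52 bases before it. A pair of the ncRNA loci also carry snoRNAs on their own strand. AT2G46192 (chr2:18973307-18974133, plus strand, 827 bases, 1 exon) contains AtsnoR68, snoR159, snoR145 and snoR135 in full and 24 bases of snoR157, and snoR135b begins 75 bases after its end. AT5G06165 (chr5:1867197-1868244, minus strand, 3 exons) contains snoR133 wholly within an exon and snoR120 across an exon edge, and it also covers the lncRNA gene AT5G01155 of the opposite strand. Thus 4 of the 9 loci are snoRNA genes or contain snoRNA genes.

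**Figure D1:**
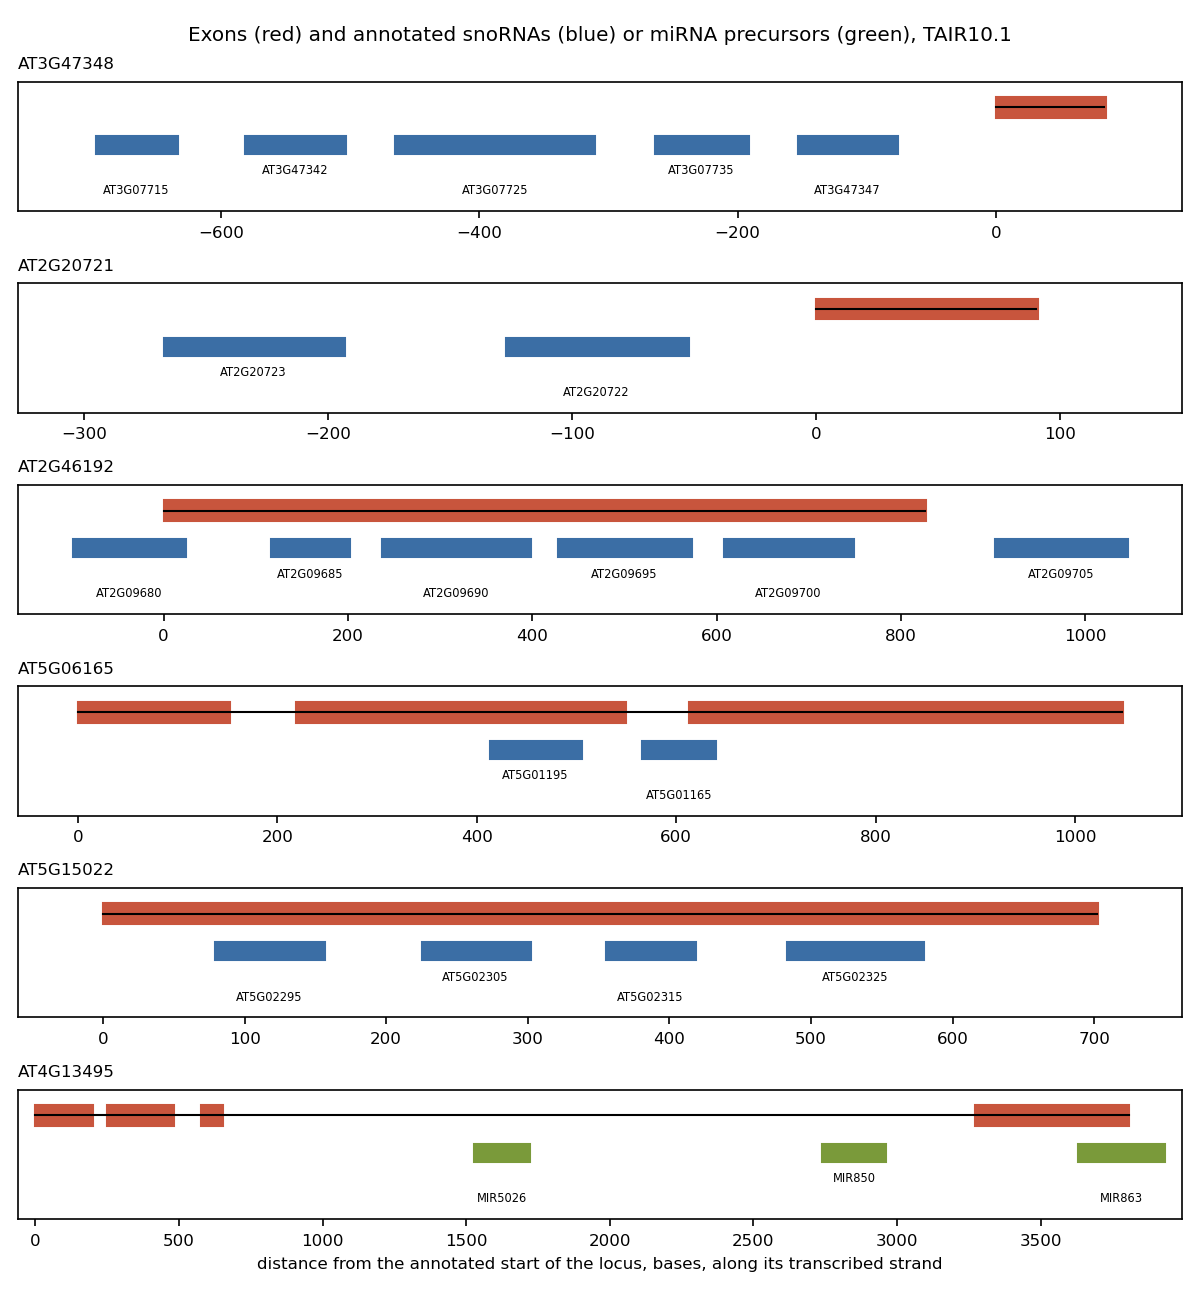
Exons (red) of 5 of the 9 loci and of AT5G15022, with annotated snoRNA genes (blue) and microRNA precursors (green), drawn along the transcribed strand in bases from each locus start. The snoRNA loci AT3G47348 and AT2G20721 stand at the end of rows of 6 and 3 snoRNA genes, and AT2G46192, AT5G06165 and AT5G15022 contain snoRNA genes.

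Library totals ran from 4060216 to 5806617 counts, so 3 counts, the upper limit that a count of 0 leaves in a library, equal 0.517 to 0.739 counts per 1000000 (CPM; counting error only). Of 16928 loci tested across the whole table with edgeR's quasi-likelihood test, 308 passed an adjusted p of 0.05, which is 1.82%, with 0.449% higher and 1.37% lower in memory plants, and the median log2 fold change (memory minus wild type) of all tested loci was 0.008. The groups did not overlap at 19.7% of tested loci, with 9.52% of all tested higher and 10.2% lower in memory plants. Wild-type plant 23 differed most from the rest, with Pearson r of log2 CPM across tested loci of 0.931 to 0.947 with the other plants, against 0.948 to 0.977 among those. Loci are not independent replicates, and values without plant 23 are given for some of the loci and lists that moved. The 4 green shoot markers were high in every plant, at summed levels of 45460 to 58400 CPM in wild type against 40130 to 47900 CPM in memory plants. The labels call the tissue whole plants, but the 4 root and root hair markers summed to at most 0.580 CPM in any plant and 2 of the 4, EXP7 and PRP3, were at 0 in all 6. In whole-plant RNA, fewer cells of a type and less RNA per cell cannot be told apart.

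All 9 loci passed the filter on low counts, all 9 passed the threshold that 1.82% of tested loci passed, 8 were higher and 1 was lower in memory plants, and the groups overlapped at none of them, where 19.7% of all tested loci did not overlap. These counts are what the choice of loci fixed. Their edgeR adjusted p-values reached up to 0.0485, for AT4G13495. Among loci annotated as non-coding, the nearest on the other side of 0.05, AT3G02832, stood at 0.0769. Their median log2 fold change was 1.80.

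**Figure D2:**
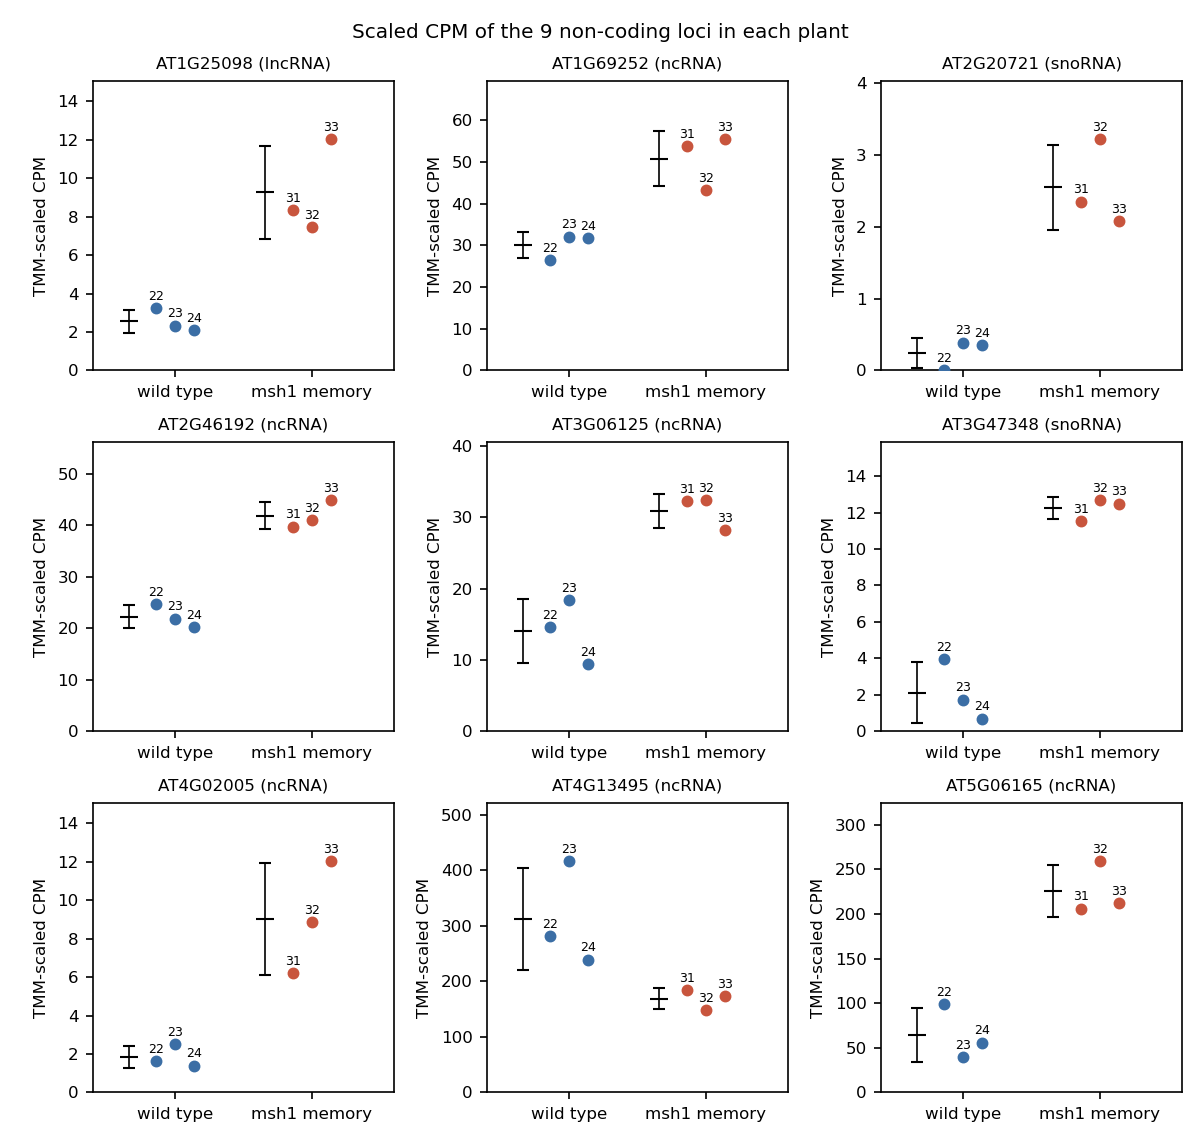
TMM-scaled CPM of each of the 9 loci in the 3 wild-type plants (blue) and 3 msh1 memory plants (red), each point 1 plant with its number, and the bar beside the points the mean ± SD. In 8 panels the memory plants lie above every wild-type plant, and in the AT4G13495 panel they lie between 148.1 and 184.4 CPM, below all wild-type plants.

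The snoRNA locus AT3G47348 had 22, 9 and 4 reads in wild-type plants 22, 23 and 24 and 54, 63 and 54 reads in memory plants 31, 32 and 33. Scaled for library size by the trimmed mean of M values (TMM), these are 3.96, 1.74 and 0.696 CPM against 11.5, 12.7 and 12.5 CPM. The memory plants were close together, while the wild-type plants spread from plant 24, the lowest, to plant 22, the highest, which still lay below every memory plant. Mean levels were 2.13 ± 1.67 CPM in wild type against 12.2 ± 0.607 CPM in memory plants (SD, n = 3 per group), with a log2 fold change of 2.51 and a standard error (SE) of 0.432. Without plant 22 the log2 fold change was 3.32. Only plant 22 of the wild type had at least 10 reads, so AT3G47348 passed the low-count filter through the memory plants.

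Its neighbours in the row had fewer reads. AT3G47342 had 7, 3 and 1 reads in the wild-type plants and 21, 14 and 12 in the memory plants, so its groups did not overlap. The locus passed the low-count filter only through the memory plants. Its log2 fold change was 2.29 ± 0.608 (SE), and it missed the threshold (edgeR adjusted p = 0.0899). Without plant 23 it passed, at a log2 fold change of 2.21 (edgeR adjusted p = 0.0494), and over all 14 alternatives its adjusted p ran from 0.0494 to 0.437. AT3G47347 had 10, 1 and 8 reads against 18, 20 and 6, so memory plant 33 fell within the wild-type range, and the locus did not pass the filter for testing.

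The second snoRNA locus, AT2G20721, was near the detection limit in wild type, with 0, 2 and 2 reads in plants 22, 23 and 24. The memory plants had 11, 16 and 9 reads, each above all wild-type plants. Its level was 0.245 ± 0.213 CPM in wild type, under the 3-count limit, and 2.55 ± 0.595 CPM in memory plants (SD, n = 3 per group). It passed the filter only through the memory plants. The summed reads, 4 against 36, give a ratio of 10.6 after scaling, with an exact 95% interval of 3.80 to 41.0 that covers counting error only, beside a fitted log2 fold change of 3.27 ± 0.731 (SE). Its upstream neighbour AT2G20722 had no read in any plant. AT2G20723 had 0 reads in the wild-type plants and 1, 3 and 1 in the memory plants. Both member snoRNA genes, at 85 and 91 bases, are shorter than the 150-base reads.

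AT5G06165, which contains snoR120 and snoR133, had the largest CPM of the 8 loci that were higher. It stood at 98.6, 39.8 and 55.7 CPM in plants 22, 23 and 24 and at 205.8, 259.1 and 212.0 CPM in plants 31, 32 and 33. The lowest memory plant was 2.09 times the highest wild-type plant. Group means were 64.7 ± 30.4 and 225.6 ± 29.2 CPM (SD, n = 3 per group), a log2 fold change of 1.80 ± 0.302 (SE). Wild-type plant 22 was the highest of its group, and without it the log2 fold change was 2.24. Since the kit does not mark strand, reads of this locus and of the opposite-strand lncRNA AT5G01155 cannot be told apart.

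AT2G46192, which contains 4 whole snoRNA genes, varied little among plants of a group. Its values were 24.7, 21.9 and 20.2 CPM in the wild-type plants and 39.8, 41.0 and 44.9 CPM in the memory plants. Within-group coefficients of variation were 10.2% and 6.33%. The means were 22.2 ± 2.26 and 41.9 ± 2.65 CPM (SD, n = 3 per group), a log2 fold change of 0.91 ± 0.148 (SE).

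Beyond the 9, AT5G15022 was the only non-coding locus called in the same fit, of 203 tested (0.493%, beside 1.82% of all tested loci). Counted with the 9, the calls were 10 of 212 (4.72%). The small share thus follows from leaving out the 9, which were picked for a group difference. MicroRNA precursor genes were not counted as non-coding loci. AT5G15022 is an lncRNA gene at chr5:4866237-4866939 on the plus strand, and it contains 4 snoRNA genes, AtsnoR13-1, AtU18-1, AtU54 and At58Y-1. It had 0, 2 and 0 reads in the wild-type plants and 15, 15 and 17 in the memory plants. With 2 wild-type reads in all, the scaled ratio was 27.7 with an exact 95% interval of 7.25 to 235.4, counting error only. The fitted log2 fold change was 4.54 ± 0.805 (SE; edgeR adjusted p = 0.0139), and like AT2G20721 it passed the filter only through the memory plants. The call was lost without plant 22, 31, 32 or 33, where the adjusted p ran from 0.0632 to 0.121.

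A closer count of loci that contain snoRNA genes was made after these values were seen, and it is given without a test. Among 11 further non-coding loci or transcribed pseudogenes that overlap an annotated snoRNA, 8 were tested, all 8 had positive log2 fold changes with a median of 0.87, and 1, AT5G15022, was called. The filter keeps low loci that are high in the memory plants, and only 4 of the 8 had at least 10 reads in every wild-type plant, with log2 fold changes of 0.27 to 0.52. Of the 8, AT3G02832, which contains AtsnoR78-1 and AtsnoR78-2, had 8, 5 and 7 reads in wild type and 16, 21 and 19 in memory plants. Among 46 protein-coding loci that overlap a snoRNA gene, 26 had positive values, the median was 0.09, and 1 was called. That locus, AT1G29418 (chr1:10300631-10301302, plus strand), overlaps 3 snoRNA genes. It stood at 5.04, 2.9 and 2.96 CPM in the wild-type plants and at 10.3, 11.3 and 12.5 CPM in the memory plants, without overlap. Its log2 fold change was 1.63 ± 0.295 (SE; edgeR adjusted p = 0.0154).

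The remaining snoRNA loci in the files were mostly thin. Of 69 that are not among the 9, 60 had reads, between 1 and 606 over all 6 libraries. In 55 of the 60 the memory mean was the higher, a share of 91.7%, beside 52.2% of all 22461 loci with reads. The groups did not overlap in 24 loci with the memory plants higher and in 0 with them lower. Among tested loci of the whole table the shares were 9.52% higher and 10.2% lower, and shares over all loci with reads were not counted. The 60 include loci with few reads, such as U60.1F with 0 reads in each wild-type plant and 1 in each memory plant. Only 13 passed the filter, and edgeR called 0 of them, with 6 at an unadjusted p under 0.05. Without plant 23 it called 1 of 16 tested, AT3G47342. DESeq2, without that filter, also called 0, with 14 at an unadjusted p under 0.05. Its own default filtering can leave low loci without an adjusted p. EdgeR without the low-count filter called 0 of 60, with 23 at an unadjusted p under 0.05. The filter keeps low loci that are high in 3 plants, and only 4 of the 13 had at least 10 reads in every wild-type plant, 3 of them with positive fold changes.

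U3B, a copy of the U3 snoRNA that takes part in cleavage of the ribosomal RNA precursor, had 28, 25 and 30 reads in the wild-type plants and 42, 40 and 33 in the memory plants. These groups did not overlap, and its log2 fold change of 0.70 had an SE of 0.262 and missed the threshold (edgeR adjusted p = 0.266). U3B was chosen for naming after its values were seen. SNOR30 went the other way, with 25, 13 and 31 reads against 17, 20 and 11, and its groups overlapped. It was the only tested snoRNA locus with a negative log2 fold change, at -0.28 with an SE of 0.401 (edgeR adjusted p = 0.836).

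Summed over the 69 loci, snoRNA reads came to 69.5, 43.9 and 54.8 CPM in the wild-type plants. In the memory plants they came to 104.5, 129.5 and 94.3 CPM, above every wild-type plant. The means were 56.1 ± 12.8 and 109.5 ± 18.1 CPM (SD, n = 3 per group), a ratio of 1.95. A 2-sided exact permutation test gave p = 0.1, the smallest that 3 against 3 plants allow. Groups that do not overlap always give it, and summing the class was chosen after the values were seen, so this p is no support. Leaving out each plant in turn gave ratios of 1.76 to 2.22. Without the row neighbours of AT3G47348 and AT2G20721 the ratio was 1.89, and without AT2G05765, the locus with the most reads, it was 2.03.

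Other short RNA classes overlapped between the groups. Small nuclear RNA loci, which include spliceosomal RNAs, summed to 18.1 ± 6.98 CPM in wild type against 20.5 ± 1.56 CPM in memory plants (exact permutation p = 0.6). Transfer RNA loci summed to 14.9 ± 3.10 and 18.1 ± 5.34 CPM (exact permutation p = 0.4). Ribosomal RNA loci ranged from 25.1 to 205.1 CPM in wild type, with plant 22 the highest, and from 14.5 to 110.7 CPM in memory plants, with plant 33 the highest (exact permutation p = 0.7).

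**Figure D3:**
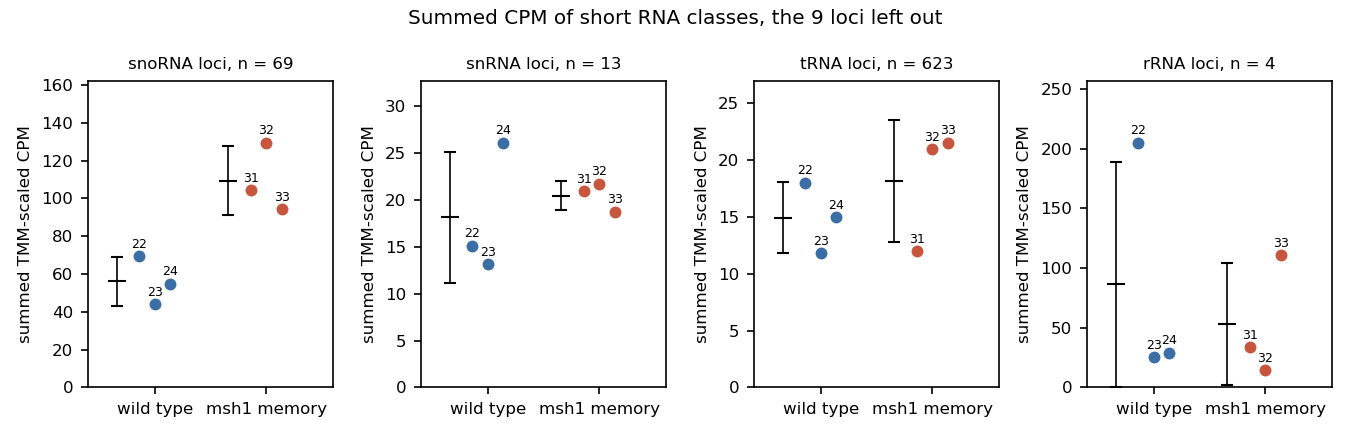
Summed TMM-scaled CPM of 4 classes of short RNA loci in each plant (points with plant numbers; wild type blue, msh1 memory red; bars mean ± SD, cut at 0), the 9 loci left out. The snoRNA sums of memory plants, 94.3 to 129.5 CPM, lie above those of wild type, 43.9 to 69.5 CPM, while the other 3 classes overlap.

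Transcripts for the proteins that bind and process snoRNAs, not the proteins themselves, were measured through a list of 14 snoRNP genes. Among them were the fibrillarin genes FIB1 and FIB2, NOP56, NOP10 and the pseudouridine synthase gene NAP57. All 14 were tested and 0 were called, with 1 at an unadjusted p under 0.05. DESeq2 also called 0 of them, with 0 at an unadjusted p under 0.05. FIB2 stood at 16.0, 6.38 and 24.5 CPM in the wild-type plants and 16.2, 16.5 and 20.3 CPM in the memory plants. The memory plants lay inside the wild-type range. The list's median log2 fold change was 0.15, and without plant 23 it was -0.09. A list of 18 RNA decay genes, exosome subunits, the helicase genes HEN2 and MTR4 and the XRN exonucleases, also had 0 calls of 18 tested, with 0 at an unadjusted p under 0.05. DESeq2 gave the same 2 counts for it. The median of the decay list was 0.10, and without plant 23 it was -0.001. HEN2 stood at 31.9 ± 4.08 CPM in wild type against 28.5 ± 5.74 CPM in memory plants (SD, n = 3 per group).

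The other 4 loci that were higher contain no annotated snoRNA. AT3G06125 (chr3:1848848-1850596, plus strand, 2 exons) stood at 14.6, 18.4 and 9.40 CPM in wild-type plants and 32.3, 32.4 and 28.2 CPM in memory plants. The wild-type plants spread more, with a coefficient of variation of 31.9% against 7.70%. Group means were 14.1 ± 4.50 and 31.0 ± 2.38 CPM (SD, n = 3 per group), with a log2 fold change of 1.14 ± 0.220 (SE). It was 1.38 without plant 23 and 0.91 without plant 24.

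AT1G69252 (chr1:26036570-26037659, plus strand, 2 exons) showed the smallest change of the 8. It stood at 26.5, 32.1 and 31.7 CPM in wild type against 53.9, 43.3 and 55.5 CPM in memory plants, and the lowest memory plant was 1.35 times the highest wild-type plant. The means were 30.1 ± 3.14 and 50.9 ± 6.64 CPM (SD, n = 3 per group), and the log2 fold change was 0.76 ± 0.155 (SE).

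AT4G02005 (chr4:876876-879774, minus strand, 5 exons) had 9, 13 and 8 reads in the wild-type plants and 29, 44 and 52 in the memory plants. It was low in all wild-type plants, and memory plant 33 was the highest and memory plant 31 the lowest of its group. The means were 1.84 ± 0.593 and 9.02 ± 2.92 CPM (SD, n = 3 per group), a log2 fold change of 2.28 ± 0.385 (SE). Only plant 23 of the wild type had at least 10 reads, so AT4G02005 passed the low-count filter through the memory plants.

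AT1G25098 (chr1:8812695-8815264, plus strand, 3 exons) had 18, 12 and 12 reads against 39, 37 and 52. The memory plants had the more reads in each case, with plant 33 the highest. Mean levels were 2.55 ± 0.609 and 9.27 ± 2.43 CPM (SD, n = 3 per group), a log2 fold change of 1.85 ± 0.336 (SE). The locus overlaps the protein-coding gene AT1G25097 of the opposite strand over 2094 bases, and that gene had 0 reads in all plants. Since the kit does not mark strand, reads of both genes cannot be told apart where they overlap. AT1G25098 also has 3 further full-length copies on chromosome 1, at 99.961%, 99.883% and 99.844% identity. The 7 loci annotated at those copies had 0 or 1 read in each plant. How reads that match several copies were counted is not given in the sources used here, so the copy that the reads came from is uncertain. The other 8 loci had no such copy at 95% identity or more.

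The start regions of 3 of these 4 loci hold the G-box CACGTG, a site bound by bHLH and bZIP transcription factors, and they are printed because the loci were higher in the same plants. Each is the stretch from 250 bases before to 50 bases after the annotated start in TAIR10.1, on the transcribed strand, with the G-box in capitals. They are chr1:26036320-26036619 (plus strand), chr3:1848598-1848897 (plus strand) and chr4:879725-880024 (minus strand).
AT1G69252: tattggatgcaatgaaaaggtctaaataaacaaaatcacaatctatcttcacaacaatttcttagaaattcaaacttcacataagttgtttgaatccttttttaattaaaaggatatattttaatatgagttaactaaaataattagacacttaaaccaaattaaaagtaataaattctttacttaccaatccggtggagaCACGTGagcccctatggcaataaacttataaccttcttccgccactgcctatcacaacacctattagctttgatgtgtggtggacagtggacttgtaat
AT3G06125: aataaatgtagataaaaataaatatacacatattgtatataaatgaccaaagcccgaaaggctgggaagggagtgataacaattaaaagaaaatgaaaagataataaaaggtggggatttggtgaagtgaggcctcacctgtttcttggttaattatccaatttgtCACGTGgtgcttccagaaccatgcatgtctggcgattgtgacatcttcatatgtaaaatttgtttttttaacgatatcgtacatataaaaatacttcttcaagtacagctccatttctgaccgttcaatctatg
AT4G02005: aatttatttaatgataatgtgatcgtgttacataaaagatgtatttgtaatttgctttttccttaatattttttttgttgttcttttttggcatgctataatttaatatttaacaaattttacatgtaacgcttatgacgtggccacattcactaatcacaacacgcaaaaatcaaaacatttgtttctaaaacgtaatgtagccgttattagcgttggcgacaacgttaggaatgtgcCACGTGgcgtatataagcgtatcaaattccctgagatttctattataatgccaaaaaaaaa
The G-box was found on either strand in 3 of the 9 windows and in 6.90% of 32834 windows of all loci of the files. These matches are a description, with no test.

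Further searches covered sites known from ribosomal protein and snoRNA promoters and from the clock. The telo box AAACCCTA was in 2 of the 9 windows, those of AT2G46192 and AT4G13495, in 6.22% of all windows and in 22.5% of the 71 snoRNA loci. The site II element TGGGCC was in the AT2G46192 window and in 14% of all windows. The CCA1-binding site AAAAATCT was in the AT3G47348 window and in 7.33% of all, and the evening element AAAATATCT was in 0 of the 9 and in 2.61% of all. The AAAAATCT match lies within the annotated snoRNA gene AtsnoR64 of the same row. The telo box match of AT2G46192 lies within snoR157 and after the annotated start of AT2G46192. No motif overlapped another in the windows shown. The window of the snoRNA-containing locus AT2G46192 (chr2:18973057-18973356, plus strand) has both telo box and site II letters, in capitals, on the printed strand or its complement.
AT2G46192: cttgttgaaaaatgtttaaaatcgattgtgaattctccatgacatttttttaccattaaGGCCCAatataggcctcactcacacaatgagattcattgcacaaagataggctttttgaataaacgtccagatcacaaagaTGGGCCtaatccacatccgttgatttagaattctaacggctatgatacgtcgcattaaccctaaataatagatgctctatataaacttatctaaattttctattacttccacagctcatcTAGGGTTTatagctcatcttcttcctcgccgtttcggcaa

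AT4G13495 (chr4:7842967-7846774, plus strand, 4 exons) was the only locus of the 9 that was lower. It stood at 281.8, 416.2 and 238.9 CPM in wild-type plants 22, 23 and 24 and at 184.4, 148.1 and 173.8 CPM in memory plants 31, 32 and 33. Plant 23 was the highest by a wide margin, and the lowest wild-type plant was 1.30 times the highest memory plant. Group means were 312.3 ± 92.5 and 168.8 ± 18.7 CPM (SD, n = 3 per group), with a log2 fold change of -0.89 ± 0.201 (SE). Without plant 23 the log2 fold change was -0.62, still negative.

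AT4G13495 overlaps the genes of 3 microRNA precursors on its strand. MIR5026 and MIR850 lie wholly in its last intron, and MIR863 overlaps its last exon by 178 of its 303 bases and runs past its end. Plant microRNAs pair with their targets along most of their length. The mature sequences of the 3 precursors are shown as DNA with bases 2 to 8 in capitals, from chr4:7844612-7844632, chr4:7845756-7845777, chr4:7846644-7846664 and chr4:7846835-7846855.
ath-miR5026: aCTCATAAgatcgtgacacgt
ath-miR850: tAAGATCCggactacaacaaag
ath-miR863-5p: tTATGTCTtgttgatctcaat
ath-miR863-3p: tTGAGAGCaacaagacataat
The 4 differ from each other in bases 2 to 8. The sequence of ath-miR863-3p lies beyond the end of AT4G13495. The libraries measured precursors at most, since mature microRNAs are far shorter than the reads.

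The MIR850 locus had 19.8, 22.8 and 12.5 CPM in wild type against 14.3, 9.25 and 16.9 CPM in memory plants, and the groups overlapped. Its log2 fold change was -0.45 ± 0.271 (SE; edgeR adjusted p = 0.552). MIR863 had 12, 10 and 20 reads against 8, 8 and 12, also overlapping, with a log2 fold change of -0.33 ± 0.469 (SE; edgeR adjusted p = 0.837). Reads of MIR863 can also lie in the last exon of AT4G13495, whereas MIR850 lies in an intron.

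The loci next to the 9 in identifier order, and those that overlap them, came to 19 in the files. Of these 13 had reads, 10 were tested and 1 was called, which is 10% beside 1.82% of all tested loci. The median log2 fold change of the 10 was 0.05, and without plant 23, with 11 tested, it was -0.02. The called locus was AT4G13500, a protein-coding gene that lies 9992 bases from AT4G13495. It stood at 38.5, 47.6 and 37.4 CPM in wild-type plants and 80.8, 72.0 and 57.6 CPM in memory plants, so it was higher where AT4G13495 was lower. The means were 41.2 ± 5.57 and 70.1 ± 11.7 CPM (SD, n = 3 per group), a log2 fold change of 0.77 ± 0.164 (SE; edgeR adjusted p = 0.0356). The adjusted p was 0.0629 with limma voom, and it ran from 0.0743 to 0.249 without plant 22, 24, 31, 32 or 33.

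Other neighbours gave no call. AFP1, which encodes a binding protein of the abscisic acid factor ABI5, follows AT1G69252 at 1245 bases. It had 3.78, 5.03 and 6.27 CPM in wild type against 9.40, 6.64 and 9.94 CPM in memory plants, without overlap, at a log2 fold change of 0.78 ± 0.30 (SE; edgeR adjusted p = 0.288). AT1G69250, AT2G46200, AT3G06130 and AT4G02010 had overlapping groups, with log2 fold changes of 0.06, -0.19, 0.28 and -0.11, and AT2G20720, with 5 to 14 reads in each plant, was not tested. HSD2, 770 bases after AT3G47348, stood at 25.6 ± 3.60 and 26.3 ± 3.36 CPM (SD, n = 3 per group) and ATO, 763 bases from AT5G06165, at 10.5 ± 3.47 and 11.6 ± 0.939 CPM. MUTE, a regulator of stomatal development 588 bases from AT3G06125, had 1 to 11 reads in wild-type and 2 to 9 reads in memory plants and was not tested. AT1G25097, AT1G25112, AT2G46190, AT4G02000 and SUC9 had no reads in any plant.

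**Figure D4:**
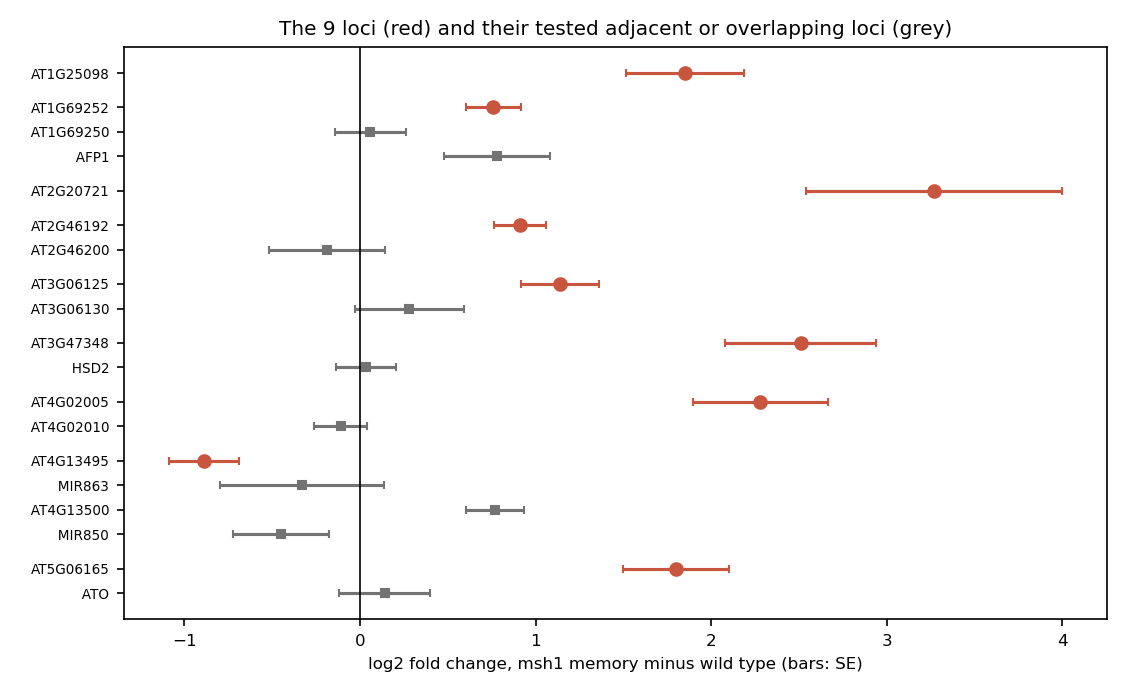
Log2 fold changes (memory minus wild type, edgeR; bars are SE) of the 9 loci (red circles) and of their tested adjacent or overlapping loci (grey squares), grouped by locus. The neighbours lie between -0.45 and 0.78, and AT4G13500 at 0.77 is the only called one.

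Ordered by level per exon length, AT4G13495 was the highest of the 9 in wild type, at 299.7 CPM per kb, followed by AT5G06165 at 70.4, AT1G69252 at 30.7 and AT2G46192 at 26.9 CPM per kb. The plants of AT1G69252 and AT2G46192 overlapped at these levels. AT3G06125 followed at 16.7 CPM per kb, AT1G25098 at 1.16 and AT4G02005 at 0.872 CPM per kb, and the plants of these last loci overlapped. In memory plants AT5G06165 was first at 245.5 CPM per kb and AT4G13495 second at 162.0 CPM per kb, with AT1G69252 at 51.9, AT2G46192 at 50.6 and AT3G06125 at 36.7 CPM per kb. AT1G25098 and AT4G02005 were then at 4.23 and 4.27 CPM per kb, again with overlap. The snoRNA genes are left out of this order because they are shorter than the reads.

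The number of the 9 past the threshold was 7 with library totals or limma voom and 8 with upper-quartile scaling, a filter of 1 CPM in 3 libraries or no robust estimation. AT4G13495 passed in the fewest, 5 of 14 alternatives. Leaving out a plant also changed how many of the 9 passed the threshold. The count was 5 without plant 22, 9 without plant 23 and 6 without plant 24. It was 1 without plant 31, 0 without plant 32 and 0 without plant 33. All loci kept the sign of their fold change in each case, which their lack of overlap between the groups largely fixed. Over all loci the calls fell to 34, 65 and 38 without plants 31, 32 and 33.

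Among all 1099 other non-coding loci, 203 were tested, 130 had positive log2 fold changes and the median was 0.15. The 68 tested loci of the ncRNA class had 50 positive values with a median of 0.32. Their groups did not overlap in 20 with memory plants higher and in 1 with them lower. Over all tested loci the shares were 9.52% higher and 10.2% lower. The filter keeps low loci that are high in the memory plants, such as AT3G02832 of the ncRNA class. That locus is also among the snoRNA-containing loci counted above, so the 2 counts are not independent. The 113 tested lncRNA loci had a median of 0.09. A list of 15 described long non-coding transcripts had 8 tested members, of which 7 had positive values and the median was 0.72. EdgeR called 0 of these, with 6 at an unadjusted p under 0.05. DESeq2 called 2 of them, the phosphate starvation transcript AT4 (AT5G03545) higher and FLORE (AT1G69572), an antisense partner of the flowering repressor gene CDF5, lower.

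TAS3, whose transcript gives rise to small RNAs against auxin response factor genes, had 40, 13 and 32 reads in wild-type plants and 59, 74 and 41 in memory plants. The groups did not overlap, and the log2 fold change of 1.27 ± 0.342 (SE) missed the threshold (edgeR adjusted p = 0.0972). Both AT4 and TAS3 were called higher without plant 23, and also by edgeR without the low-count filter. AT4 had 10, 4 and 9 reads against 17, 28 and 28, a log2 fold change of 1.90 ± 0.45 (SE; edgeR adjusted p = 0.0575). FLORE had 15, 55 and 26 reads against 1, 11 and 2, with plant 23 the highest, a log2 fold change of -2.55 ± 0.743 (SE; edgeR adjusted p = 0.145).

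The tested genes whose pattern over the 6 plants was most like the mean pattern of the 8 higher loci were AT5G06980, AT5G47060 and AT1G07590, with Pearson r of 0.9996, 0.999 and 0.9985. AT1G07590 went from 27.0 ± 3.36 to 72.0 ± 2.26 CPM (SD, n = 3 per group). The genes most like AT4G13495 were the transcription factor genes WRKY17 and PIF4 and the carboxypeptidase-like gene SCPL34, with r of 0.9965, 0.995 and 0.9928. PIF4, a bHLH factor of light and temperature growth responses, stood at 129.0, 198.2 and 118.5 CPM in wild-type plants and 92.7, 80.1 and 87.6 CPM in memory plants. These correlations are a description: the 6 points share the split between the groups, and the genes were picked as the highest of all tested.

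Clock genes, read as markers of harvest time, differed between the groups in the same libraries. The dawn genes CCA1 and LHY summed to 114.7 to 188.1 CPM in wild-type plants and 252.2 to 275.6 CPM in memory plants, and 1 of the 2, LHY, was called higher (edgeR adjusted p = 0.0044). The 4 evening genes GI, PRR5, TOC1 and FKF1 summed to 322.8 to 477.7 CPM against 125.1 to 155.3 CPM, and all 4 were called lower. The 4 markers of rapid handling summed to 35.4 to 205.9 CPM in wild type, with plant 24 the highest, and 27.7 to 31.2 CPM in memory plants, and 1 of the 4, ERF5, was called lower. The 5 flower bud markers summed to 1.98 to 4.53 CPM against 4.49 to 9.02 CPM, with 1 tested and 0 called. No marker of these lists was at 0 in all plants. The part of harvest time, handling and bud tissue in the values of the 9 loci was not tested.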

How the data were processed

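Each plant has 1 deposited file of raw read counts per locus, which the authors made from 150-bp reads. TAIR10 and DESeq2 stand in the submitters' processing notes. Which aligner and counting program were run, and how strand and reads with several matches were handled, is not given in the sources used here. Classes, positions and sequences were taken by locus identifier from RefSeq's TAIR10.1, which matched 32835 of 33602 loci. All 279 organelle loci were at 0.

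Counts were tested in R 4.3.3 with edgeR 4.0.16 (TMM scaling, filterByExpr with minimum count 10 and total 15, robust quasi-likelihood fit, 2-sided) and adjusted by the Benjamini-Hochberg method over 16928 loci. Copies were sought with blastn 2.17.0 (95% identity over 150 bases, or 80% of a shorter locus). The C box was sought at the start and the D box at the end of each snoRNA gene. The members and lists were chosen with earlier results of these data known. The text names all members, their adjacent and overlapping loci, called list members, called non-coding loci and the 3 genes most alike in pattern. Further named loci (AT3G02832, AT1G29418, U3B, SNOR30, TAS3, AT4, FLORE, FIB2, HEN2) were chosen after their values were seen. Alternatives were other scalings and filters, DESeq2 1.42.0, limma voom (3.58.1), a fit without robust estimation and leaving out each plant.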

Additional observations from a re-analysis of the deposited data

How the results depend on the processing

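All 8 positive and 1 negative fold changes of the 9 loci kept their sign under all 14 alternatives run, but the number past the threshold ran from 0 to 9. The groups overlapped at none of the 9, so leaving out a plant could hardly reverse a sign, and the kept signs are no support. The count of loci called was 308 in the main analysis, 523 with DESeq2 and 34 to 1019 when each plant was left out. The number of other non-coding loci called was 1, then 2 with no filter on low counts, 3 with DESeq2 and 0 to 6 when each plant was left out. The number of adjacent loci called was 1, then 0 with limma voom and 0 to 1 when each plant was left out. The snoRNP and RNA decay lists gave 0 calls under all alternatives run. The cause of each shift was not tested. No paired analysis was possible because wild-type and memory plants carry different numbers. Depth limits the snoRNA loci: AT2G20721 rests on 4 wild-type reads, and a count of 0 still allows 0.517 to 0.739 CPM.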
